A study of Mus musculus with 2 samples.

Results

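Brain vessels are lined by endothelial cells and wrapped by mural cells. In capillaries the mural cells are pericytes, while arteries and arterioles carry contractile smooth muscle, and the large arteries run over the brain surface in the meninges before they enter the tissue. Here, 10 genes of these 3 cell types were followed across 1 mouse brain section. The endothelial genes were Cldn5, a tight junction protein of the blood-brain barrier, Pecam1, an adhesion molecule at endothelial junctions, Flt1, a VEGF receptor, Slco1a4, an organic anion transporter of the barrier, and Sox17, a transcription factor with a role in arterial endothelium. The pericyte genes were Rgs5, a regulator of G protein signalling, and Vtn, which encodes the matrix glycoprotein vitronectin. The smooth muscle genes were Acta2, the smooth muscle actin, Myl9, a myosin regulatory light chain, and Tagln, an actin-binding protein. Each was found by its symbol among the 19465 genes of the probe panel, so 10 of 10 genes were measured, 5 endothelial, 2 pericyte and 3 smooth muscle.

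The study compared brains of male mice at 6 months of age, 1 G2-3 brain, carrying A53T alpha-synuclein, and 1 wild-type brain, by Visium CytAssist spatial transcriptomics, in which pairs of probes are ligated on the RNA of a fresh frozen, methanol-fixed section and counted as unique molecular identifiers (UMIs) on a grid of spots. The labels do not name the promoter of the transgene. The matrices, gene lists and barcodes deposited under the G2-3 and the wild-type sample were the same byte for byte, so all 2722 spots are shared and the data hold 1 library. No comparison of genotypes was possible, and no genotype is given to the section. The position lists differed: the G2-3 list marked 2969 tissue spots, 751 of them without counts, and the wild-type list marked 2487, all with counts. The 2485 spots of the wild-type list with at least 500 UMIs were used. They held 20997947 UMIs, with a median of 6686 and a range of 1183 to 80174 per spot. With 1 library there are no replicates, so no p-value is given and every interval is a 95% interval for counting error alone. UMIs are counted molecules, but spots of 1 section are not independent samples. A spot is a small piece of tissue that can hold several cells, and fewer vessel cells cannot be told apart from less RNA per vessel cell.

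Levels are given on 2 scales, UMIs per 1000000 UMIs of the same spots (CPM) and UMIs per spot, because depth differed widely between regions. A higher level in CPM with no higher level per spot means that the vessel gene kept its count while the total count was lower. Levels of different genes are not ranked against each other, since the labels do not say how many probes each gene had.

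Acta2 had 895 UMIs in all, 42.6 CPM, in 366 spots. Myl9 had 685 UMIs, 32.6 CPM, in 368 spots, and Tagln 441 UMIs, 21.0 CPM, in 214 spots. The 3 smooth muscle genes were therefore each detected in at most 14.8% of spots, and their counts piled up in few of them: the highest spot held 76 UMIs of Acta2, 51 of Myl9 or 33 of Tagln. Flt1 had 805 UMIs, 38.3 CPM, in 640 spots. Sox17 had 570 UMIs in 456 spots, Cldn5 had 553 in 448, Slco1a4 had 431 in 374 and Pecam1 had 177 in 158. No spot held more than 6 UMIs of any endothelial gene. Vtn stood between the classes, with 736 UMIs in 500 spots and at most 16 in a spot. Rgs5 was nearly undetected, with 54 UMIs in 54 spots, so the pericyte sum of 790 UMIs was almost all Vtn.

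**Figure D1:**
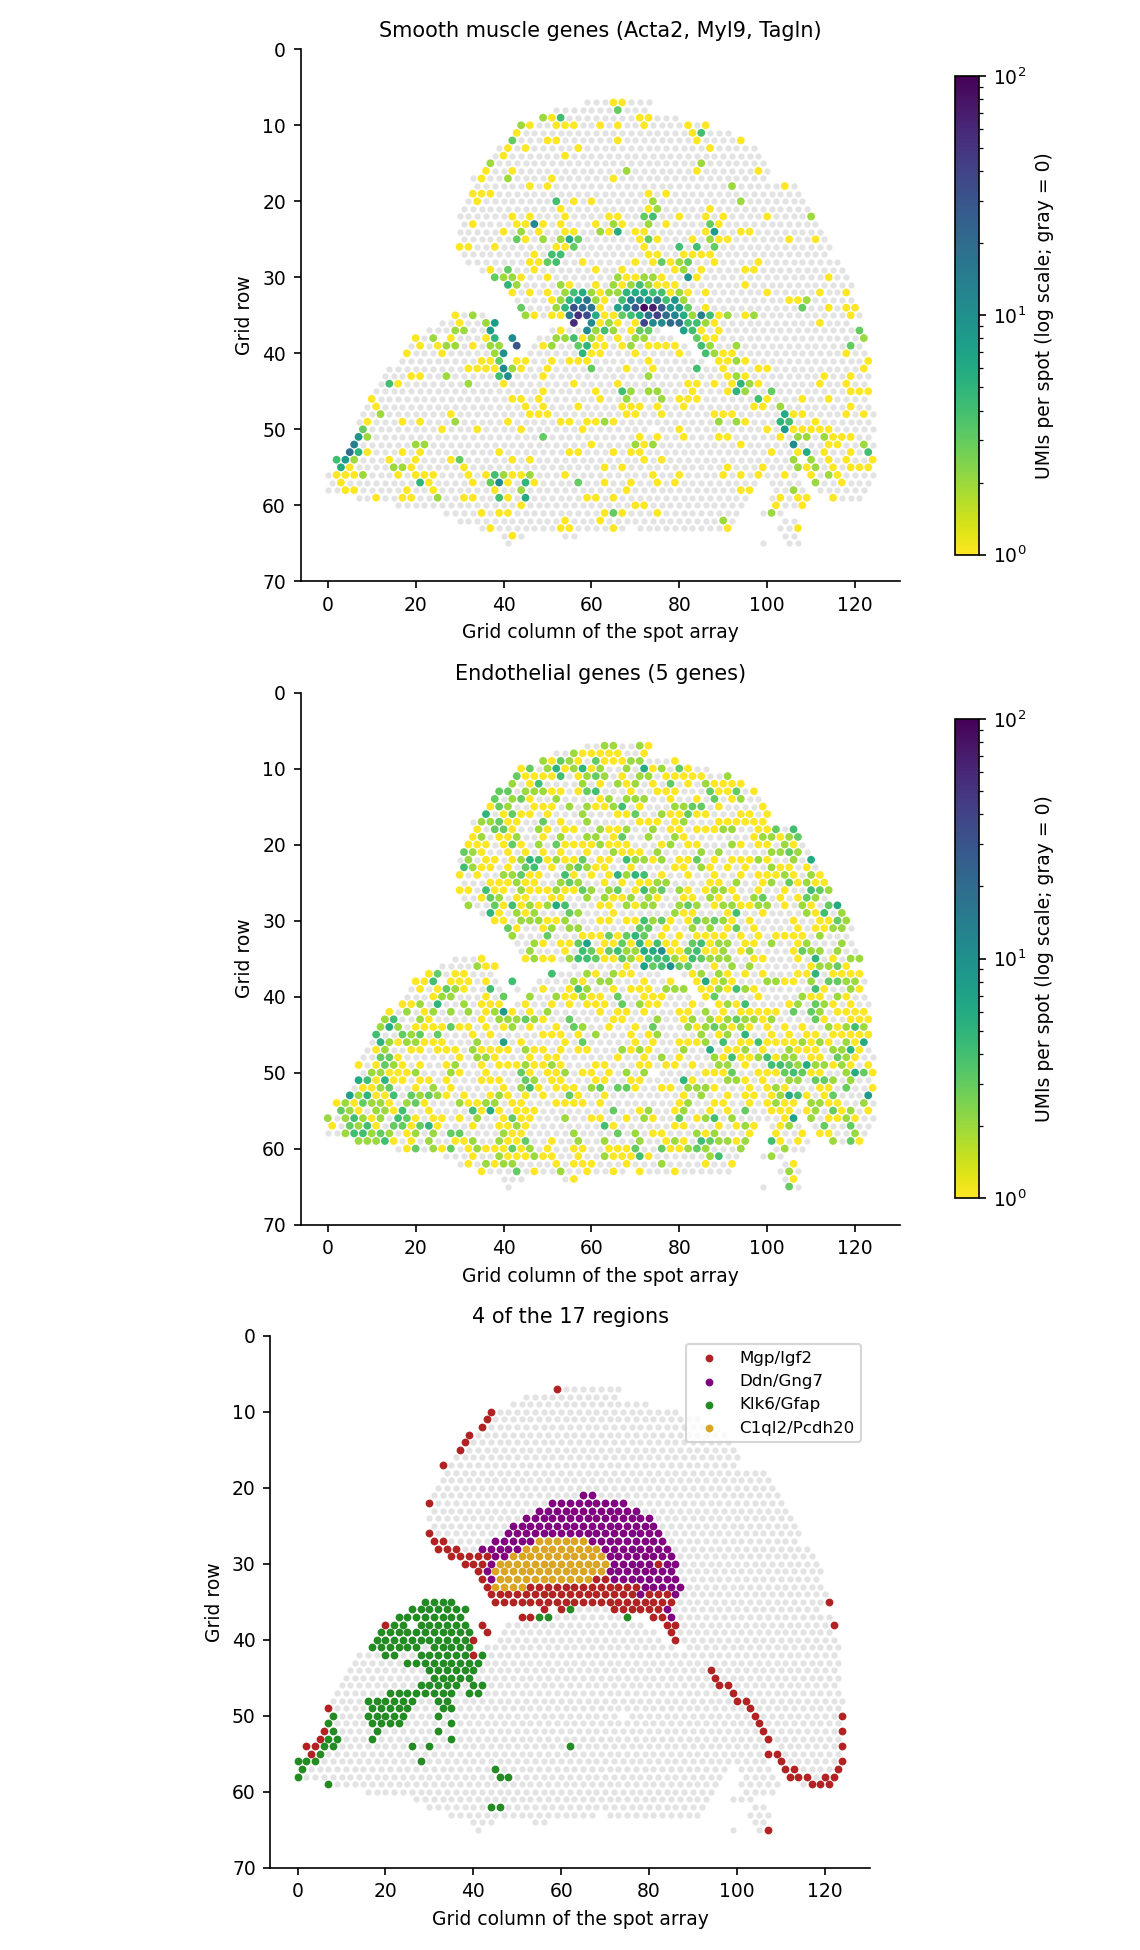
The section on its spot grid (horizontal axis: grid column; vertical axis: grid row). The upper map shows the summed UMIs per spot of Acta2, Myl9 and Tagln and the middle map those of Cldn5, Pecam1, Flt1, Slco1a4 and Sox17, on 1 log colour scale with spots at 0 in gray. The lower map marks 4 of the 17 regions. Smooth muscle UMIs reach 87 in a spot and gather in the Mgp/Igf2 region, while endothelial UMIs, at most 10 in a spot, cover the section.

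How unevenly each gene lay on the grid was measured by the share of its UMIs in the 125 spots (5%) that held most of them. The 3 smooth muscle genes together had 65.0% of their 2021 UMIs there, against 22.4% of 2536 UMIs for the 5 endothelial genes. In the 25 spots (1%) with most UMIs the shares were 36.7% for smooth muscle and 6.55% for endothelial genes. The share is high for any sparse gene, so the spread beyond what spot depth gives was also computed, as the excess of the variance over its depth-scaled Poisson value divided by the squared mean. It was 18.8 for Acta2, 18.7 for Tagln and 13.9 for Myl9. Among endothelial genes it was lowest for Flt1 at 0.58, then Slco1a4 at 0.68, Cldn5 at 0.80 and Sox17 at 1.28, and highest for Pecam1 at 2.15. The median over the 11003 genes with at least 100 UMIs was 0.32. Neighbouring spots were also more alike for smooth muscle genes: Moran's I of the depth residuals was 0.34 for Acta2, 0.36 for Myl9 and 0.30 for Tagln, against 0.027 to 0.089 for the 5 endothelial genes and a median of 0.025 over all genes. For the sums, which are less sparse, it was 0.51 for smooth muscle and 0.20 for endothelial genes. Vtn had an excess of 2.89 and a Moran's I of 0.26.

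Counts of the 3 smooth muscle genes went together from spot to spot more closely than those of the endothelial genes. Over the 2485 spots, Pearson's r of log-scaled values was 0.47 to 0.52 for the 3 pairs of smooth muscle genes and 0.016 to 0.094 for the 10 pairs of endothelial genes. Pairs of an endothelial and a smooth muscle gene had r of 0.051 to 0.19. Vtn had r of 0.33 with Acta2, 0.30 with Myl9 and 0.30 with Tagln. These values share the depth of the spots and, for endothelial genes, rest on counts of mostly 0 or 1, where a weak r says little. Acta2 was present in 144 spots with Myl9, which is 39.3% of its spots, while Myl9 was present in 10.6% of the spots without Acta2.

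The genes whose pattern over spots was most like the summed smooth muscle genes, among the 11003 genes with at least 100 UMIs and leaving out the 10, were Mgp, a matrix protein of vessel walls and meninges, at r of 0.53 and Tpm2, a muscle tropomyosin, at 0.52. Vim, Igf2, Hbb-bt, Crip1, Eln and Des followed at 0.48 to 0.44, of which Eln encodes elastin and Des the muscle intermediate filament desmin. For the summed endothelial genes the most alike genes were Gfap, an astrocyte filament, Mt2 and Mt1, which are metallothioneins, at 0.26 each. Hbb-bs, Apoe, Igf2, Hba-a2 and Vim followed at 0.23 each. The median r over all genes was -0.022 for the smooth muscle sum and -0.020 for the endothelial sum. These values of r also share the depth of the spots, and its part in the lists was not tested.

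Spots were grouped into 17 regions by Leiden clustering that left out the 10 genes and the other vessel genes listed for this work, and each region is called by its 2 leading genes. Markers named 4 sets of regions used below. The Mgp/Igf2 region of 143 spots had 10 of 11 meningeal markers at least 2-fold above the other spots and held 71 of the 303 spots at the tissue edge. The Klk6/Gfap region of 163 spots led with white matter markers and the C1ql2/Pcdh20 region of 67 spots with dentate gyrus markers. The 3 regions that led with cortex markers had 475 spots. Median depth was 5194 UMIs in the Mgp/Igf2 region, 2745 in the Klk6/Gfap region, 23395 in the C1ql2/Pcdh20 region and 10884 in the cortex regions. On the map the Mgp/Igf2 region formed a band under the C1ql2/Pcdh20 region and thin strips along the outline and the clefts of the section. Unlisted genes of vessels or of their surroundings, such as Mgp, Eln, Sox18 and Notch4, did enter the clustering, so the levels by region are a description.

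The smooth muscle genes had 1066 of their 2021 UMIs, 52.7%, in the Mgp/Igf2 region, which held 5.75% of the spots. They stood at 1353 CPM there, against 47.3 in all other spots, a log2 ratio of 4.84 (4.71 to 4.97). Tagln had the highest ratio, 5.14 (4.86 to 5.42), from 255 UMIs in the Mgp/Igf2 region and 186 in all other spots. Acta2 had a log2 ratio of 5.01 (4.82 to 5.20), with 498 UMIs in the region and 397 outside it. Myl9 had 4.43 (4.21 to 4.65), with 313 UMIs in the region and 372 outside it. The median log2 ratio over all genes tested was -0.16. Of the 9 of the 10 genes with at least 100 UMIs, 8 were at least 2-fold higher in CPM in the Mgp/Igf2 region, beside 10.9% of the 11003 genes with at least 100 UMIs. The ratio was smaller at matched depth: among spots of 2000 to 5000 UMIs alone, the smooth muscle genes had 207 UMIs in 63 spots of the region and 368 in 689 other spots, a log2 ratio of 2.64 (2.39 to 2.89). Those spots left out the deeper spots of the region, which held 9 of the 10 spots with most smooth muscle UMIs.

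The endothelial genes were also higher in the Mgp/Igf2 region, by much less. Their 292 UMIs made 370.7 CPM there, against 111 in all other spots, a log2 ratio of 1.74 (1.56 to 1.92) and of 1.09 per spot. The region held 11.5% of their UMIs. Pecam1 had the highest ratio, 2.71 (2.14 to 3.25), followed by Cldn5 at 2.10, Sox17 at 1.94 and Slco1a4 at 1.69. Flt1 had the lowest, 0.91 (0.49 to 1.31), and per spot it held 0.38 UMIs in the region and 0.32 in the other spots. Among spots of 2000 to 5000 UMIs the endothelial ratio was 0.78 (0.43 to 1.11).

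Vtn had 230 UMIs in the Mgp/Igf2 region and 506 outside it, 292 and 25.0 CPM, a log2 ratio of 3.54 (3.31 to 3.77). Its ratio thus lay above those of all 5 endothelial genes and below those of the 3 smooth muscle genes. Rgs5 had 3 UMIs in the region and 51 outside it, a log2 ratio of 0.59 with an interval of -1.73 to 2.22, so no difference was detectable at this depth. The pericyte sum, at 3.42 (3.20 to 3.65), is a value of Vtn.

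**Figure D2:**
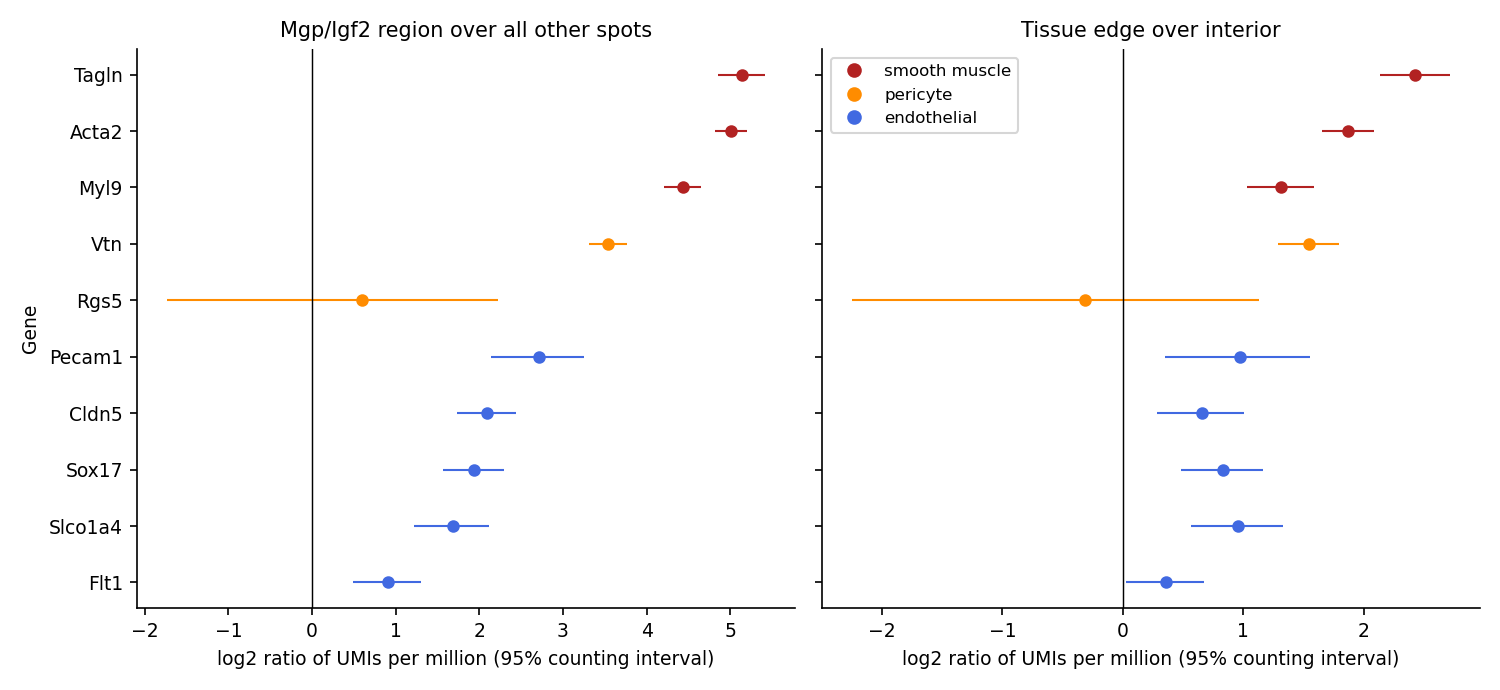
Log2 ratio of CPM for each of the 10 genes (points) with its 95% counting interval (bars), in the Mgp/Igf2 region over all other spots (left) and at the tissue edge over the interior (right). Colours give the class. Tagln, Acta2 and Myl9 lie at 4.43 to 5.14 in the left panel and the 5 endothelial genes at 0.91 to 2.71; Rgs5 has the widest interval in both panels.

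Because both classes were counted in the same spots, the ratio of smooth muscle to endothelial UMIs does not depend on scaling by depth. It was 3.65 (3.20 to 4.17) in the Mgp/Igf2 region and 0.43 (0.39 to 0.46) in all other spots. A ratio of 1 marks equal UMIs and not equal RNA, since the probes per gene are not known. In UMIs, the ratio was below 1 in each of the 16 other regions. It stood at 0.86 in the Klk6/Gfap region, 0.85 in the Ddn/Gng7 region, 0.77 in the Kit/Nrep region and 0.75 in the C1ql2/Pcdh20 region. It was 0.71 in both the Slc18a3/Prph and the Slc6a3/Th region, and in these 6 regions the interval reached 1. The lowest ratios were 0.12 (0.036 to 0.29) in the Ccn2/Nr4a2 region, with 5 smooth muscle and 43 endothelial UMIs, and 0.17 in the Pirt/Nxph3 region. Without Acta2 and Flt1, the genes with most UMIs in their classes, the ratio in the Mgp/Igf2 region was 2.40.

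Other genes of these cell types, chosen with earlier results of these data known, were read beside the 10. The counts below stand beside 10.9% of the 11003 genes tested that were at least 2-fold higher in the Mgp/Igf2 region. Of 15 other smooth muscle genes, 10 had at least 100 UMIs and each was at least 2-fold higher in the Mgp/Igf2 region, with a median log2 ratio of 4.24. Myh11, the smooth muscle myosin heavy chain, stood at 4.96, Pln, a regulator of the calcium pump, at 4.91 and Lmod1, an actin filament nucleator, at 4.80. The lowest were Tpm1 at 1.17 and Mustn1 at 2.77. Of 29 other endothelial genes, 23 were counted, of which 17 were at least 2-fold higher and 3 had ratios below 0, with a median of 1.62. Vwf, the von Willebrand factor, was highest at 3.81, then Itm2a at 3.30 and Kdr, a VEGF receptor, at 2.49. Mfsd2a, a lipid transporter of the barrier, had -0.06 (-1.53 to 1.09), and Spock2 had -0.91 (-1.05 to -0.78).

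Genes of the arterial endothelial list differed widely among themselves. Which cells of a spot held the RNA of these and the other listed genes was not tested. Gja4, a gap junction protein of arterial endothelium, stood at 3.37 (3.00 to 3.72), with 94 UMIs in the Mgp/Igf2 region and 234 outside it, Sema3g at 2.32 and Vegfc at 1.24, the 3 of 5 counted genes that were at least 2-fold higher. The share over all genes tested was 10.9%, for this list and for those that follow. Hey1 had 0.55 and Efnb2 had 0.01. Of the venous list, 3 of 5 genes were counted: Vcam1 at 2.99, Nr2f2 at 1.35 and Ackr1 at -1.33 (-2.12 to -0.65), with 17 UMIs in the region and 1097 outside it. In the pericyte list, 6 of 10 genes were counted and 3 were at least 2-fold higher, namely Pdgfrb, the receptor by which pericytes are recruited, at 2.52, Atp13a5 at 2.07 and Cspg4, which encodes NG2, at 1.32. Kcnj8 had 0.49 and Abcc9 had 0.25, 2 subunits of 1 potassium channel, both with intervals that spanned 0.

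Markers of other cells moved with these values, and their part in them was not tested. All 4 blood genes in the panel were at least 2-fold higher in the Mgp/Igf2 region, at 4.13 to 4.42, and summed to 36335 CPM there, against 2046 in other spots. Of all genes tested, 10.9% were at least 2-fold higher in the region. Neuron markers were lower, 3 of 4 by at least 2-fold, beside 13.3% of all genes tested, at 1834 against 5700 CPM. Astrocyte markers were higher, 4 of 5 by at least 2-fold, at 2359 against 988 CPM, as were 4 of 6 microglia markers, at 773 against 269. Of the 7 perivascular macrophage genes only Pf4 reached 100 UMIs, at 5.08.

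**Figure D3:**
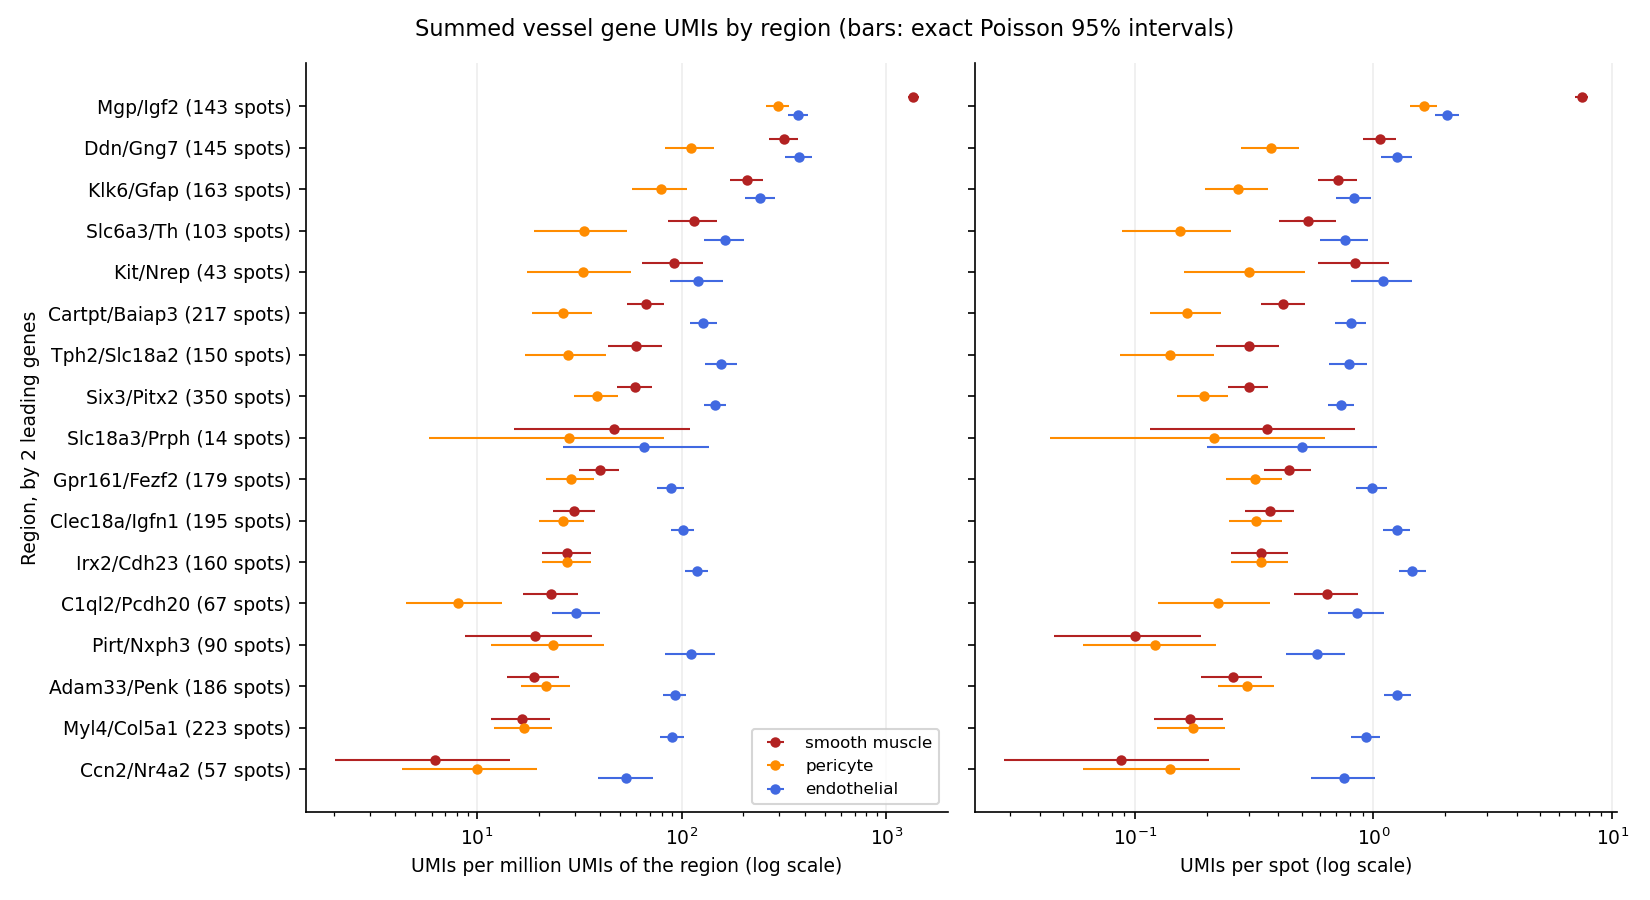
Summed UMIs of the smooth muscle, pericyte and endothelial genes in each of the 17 regions, in CPM (left) and per spot (right), on log axes with exact Poisson 95% intervals as bars. Regions run from the highest smooth muscle level in CPM at the top. The Mgp/Igf2 region stands apart for smooth muscle at 1353 CPM and 7.45 per spot; endothelial levels per spot lie between 0.50 and 2.04 in all regions.

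Outside the Mgp/Igf2 region the classes differed in how far their levels spread over the regions. Per spot, the endothelial genes ran from 0.50 UMIs in the Slc18a3/Prph region, which had 14 spots, to 1.46 in the Irx2/Cdh23 region, a 2.91-fold range. Those of smooth muscle ran from 0.088 in the Ccn2/Nr4a2 region to 1.06 in the Ddn/Gng7 region, a 12.1-fold range. The low end of that range rests on 5 UMIs in 57 spots, with an interval of 0.028 to 0.20 per spot. When regions were ordered per spot, the Mgp/Igf2 region stood apart from the next one in all 3 classes, and the intervals of the other 15 neighbouring pairs overlapped in each class. In CPM, the endothelial level was lower in deeper regions: over the 17 regions its r with mean UMIs per spot, both as log2 values, was -0.84, against 0.13 for the level per spot. For smooth muscle genes r was -0.65 CPM and -0.26 per spot. CPM divides by this same depth, so a level per spot that changes little with depth gives a negative r in CPM.

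From spot to spot, levels in CPM were also lower at higher depth. Among the 2342 spots outside the Mgp/Igf2 region, split by depth into 4 sets of 584 to 586 spots, the shallowest set had 231 CPM of endothelial genes and the deepest 80.2. Per spot the order was the other way, with 0.72 UMIs in the shallowest and 1.37 in the deepest set. Smooth muscle genes stood at 178, 72.3, 34.9 and 21.6 CPM from the shallowest to the deepest set, and at 0.56, 0.40, 0.31 and 0.37 UMIs per spot.

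The Ddn/Gng7 region, 145 spots on the outer side of the C1ql2/Pcdh20 region, had the highest endothelial level in CPM, 374, beside 371 in the Mgp/Igf2 region. Its leading gene Ddn encodes dendrin, whose messenger RNA is found in dendrites, and its median depth was 3199 UMIs. The endothelial level was high there at matched depth too: among spots of 2000 to 5000 UMIs it was 381 (325 to 445) CPM in 131 spots of the Ddn/Gng7 region, against 178 (161 to 197) in 558 other spots outside the Mgp/Igf2 region. Smooth muscle genes had 339 (286 to 399) CPM in the same spots of the Ddn/Gng7 region, against 107 (93.1 to 122) in the other spots. At all depths, the 25 spots of the Ddn/Gng7 region that bordered the Mgp/Igf2 region held 51 smooth muscle UMIs, 606 (451 to 797) CPM. The 120 others held 103, 256 (209 to 310) CPM. Endothelial genes stood at 416 (290 to 578) CPM in the bordering spots and 365 (308 to 429) in the others. Of the endothelial genes, Sox17 had 54 UMIs in the region, 111 CPM, Flt1 47, Cldn5 46, Slco1a4 27 and Pecam1 8. Acta2 had 79 UMIs there, 162 CPM, more than in any other region except the Mgp/Igf2 region.

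In the Klk6/Gfap region with white matter markers, the endothelial genes stood at 242 CPM, against 89.8 in the cortex regions, a log2 ratio of 1.43 (1.15 to 1.71). Per spot the sign was reversed, with 0.83 UMIs in the Klk6/Gfap region and 1.04 in the cortex regions, a log2 ratio of -0.33. Flt1 had a ratio of 1.55 in CPM, from 44 and 148 UMIs, Slco1a4 had 1.54, Sox17 1.501 and Cldn5 0.88, and each was negative per spot. Pecam1 stood at 1.84 (0.76 to 2.83), from 12 and 33 UMIs, and at 0.084 per spot. Smooth muscle genes were higher on both scales, with 116 UMIs in the Klk6/Gfap region and 115 in the cortex regions, log2 ratios of 3.32 (2.93 to 3.70) in CPM and 1.56 per spot. Tagln was highest among them at 3.97, from 27 and 17 UMIs. Of the 116 smooth muscle UMIs, 48 lay in the 22 spots that bordered the Mgp/Igf2 region, 477 (352 to 633) CPM and 2.18 per spot. The other 141 spots of the Klk6/Gfap region held 68, 149 (116 to 189) CPM and 0.48 per spot. Of the 5 of the 10 genes with at least 100 UMIs over the Klk6/Gfap and cortex regions, 4 were at least 2-fold higher, beside 9.58% of the 7789 genes tested. All 4 blood genes were higher there too, at 15600 CPM against 970 in the cortex regions.

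The C1ql2/Pcdh20 region with dentate gyrus markers had the lowest endothelial level in CPM of all regions, 30.6, against 89.8 in the cortex regions, a log2 ratio of -1.55 (-1.97 to -1.15). Sox17 was lowest, at -2.56 (-3.90 to -1.47) from 7 and 122 UMIs, followed by Cldn5 at -1.80, Slco1a4 at -1.40 and Flt1 at -1.32. Pecam1 had -0.31 (-1.56 to 0.79) from 9 and 33 UMIs, and Vtn -1.16 from 15 and 99. The 4 of the 10 genes with at least 100 UMIs over these regions, Sox17, Cldn5, Flt1 and Vtn, were at least 2-fold lower, as were 12% of the 8299 genes tested. Per spot the class ratio was -0.29, with 0.85 UMIs in the C1ql2/Pcdh20 region and 1.04 in the cortex regions, beside a mean depth 2.40 times as high. Smooth muscle genes showed no difference beyond counting error in CPM, with 43 and 115 UMIs and a log2 ratio of 0.15 (-0.40 to 0.66). Per spot they were higher, with 0.64 UMIs in the C1ql2/Pcdh20 region and 0.24 in the cortex regions, a log2 ratio of 1.41. Of those 43 UMIs, 23 lay in the 14 spots that bordered the Mgp/Igf2 region, 90.1 (57.1 to 135) CPM, and the other 53 spots held 20, 12.5 (7.61 to 19.2) CPM.

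Over the whole section, the 159 spots that bordered the Mgp/Igf2 region had 181 (158 to 206) CPM of smooth muscle genes, against 38.5 (35.8 to 41.4) in the 2183 spots farther away. Endothelial genes had 161 (139 to 185) CPM in the bordering spots and 108 (103 to 113) in those farther away. Single regions varied. In the Clec18a/Igfn1 cortex region the smooth muscle values were 125 in 28 bordering spots and 16.6 in 167 others, and the endothelial values 138 and 96.3. In the Adam33/Penk region smooth muscle genes had 6 UMIs in 22 bordering spots, an interval of 12.5 to 74.0 CPM, which overlapped that of 12.9 to 24.2 CPM in 164 others, and the endothelial values were 198 (138 to 276) and 84.8 (73.4 to 97.4). Spread of RNA between neighbouring spots before capture was not tested.

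Distance from the tissue edge used positions alone and not the clustering. Edge spots were the 303 with at least 1 of 6 grid neighbours not marked as tissue, and 2182 spots were interior. In all, smooth muscle genes had 529 UMIs at the edge and 1492 in the interior, 278 and 78.1 CPM, a log2 ratio of 1.83 (1.69 to 1.98). Tagln had the highest ratio at 2.43 (2.14 to 2.72), then Acta2 at 1.87 and Myl9 at 1.32. Vtn stood at 1.55 and Rgs5 at -0.32 (-2.25 to 1.13), from 4 and 50 UMIs. The endothelial genes had a ratio of 0.69 (0.52 to 0.85), from 0.36 for Flt1 to 0.98 for Pecam1, and none reached 2-fold. Of the 9 of the 10 genes with at least 100 UMIs, 4 were at least 2-fold higher at the edge, namely Tagln, Acta2, Vtn and Myl9. They stand beside 3.18% of the 11003 genes tested.

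Much of this difference lay in the Mgp/Igf2 region. Without that region, the smooth muscle ratio at the edge was 0.92, at 83.7 CPM at the edge and 44.2 in the interior, the pericyte ratio was 0.72 and the endothelial ratio 0.50. Within the region the smooth muscle genes were no higher at the edge, with 1142 (1033 to 1260) CPM at the edge and 1521 in its interior spots. The edge depends on the position list: 103 of the 303 edge spots bordered a place without counts, and with the edge of all counted spots the smooth muscle ratio was 1.44. With the G2-3 list, whose outline does not follow the counted spots, it was -1.24 (-1.56 to -0.94). The endothelial ratio was then -0.12 (-0.33 to 0.094), an interval that spanned 0.

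**Figure D4:**
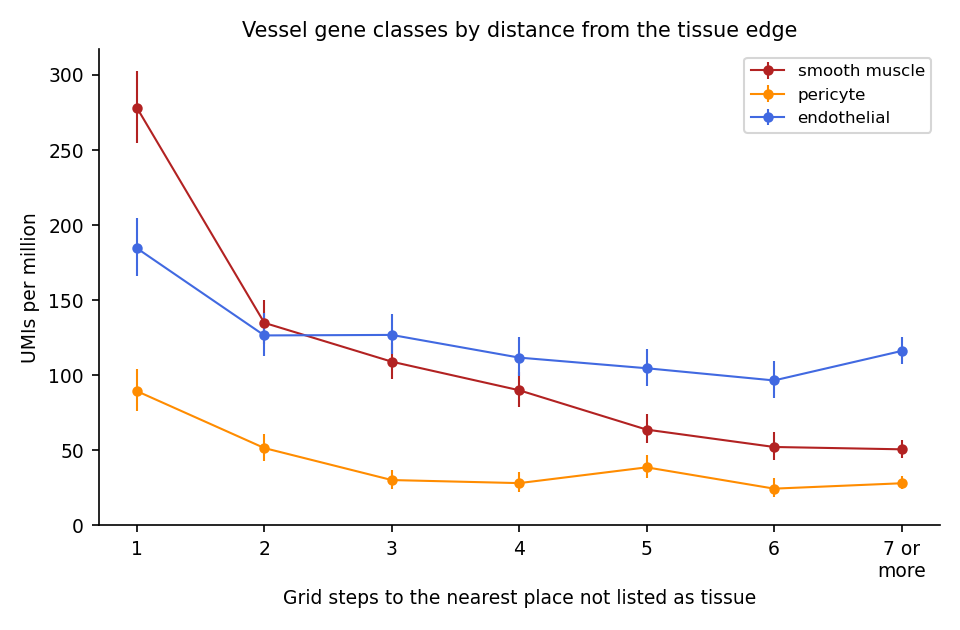
CPM of each class (points, with 95% intervals as bars) by the number of grid steps to the nearest place not marked as tissue; 1 is the edge. The smooth muscle level is 278 at the edge and 50.6 at 7 or more steps, and the endothelial level is 185 at the edge and 116 at 7 or more steps.

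The profile from the edge inwards showed the same contrast of the classes. From 1 to 6 steps the smooth muscle level was 278, 135, 109, 90.0, 63.8 and 52.2 CPM, and 50.6 at 7 or more steps. The endothelial level was 185 at the edge, 126 at 2 steps and 127 at 3, then between 96.5 and 116 farther in. Pericyte genes stood at 89.4 at the edge, 51.5 at 2 steps and between 24.4 and 38.6 from 3 steps on.

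Spots rich in Acta2 were then marked on the grid, and the other 9 genes were read around it. The 132 spots with at least 2 Acta2 UMIs formed 48 patches of neighbouring spots, 30 of them single spots and 11 of 3 or more that held 88 spots. Of the 132 spots, 65 lay in the Mgp/Igf2 region, 19 in the Ddn/Gng7 region and 9 in the Klk6/Gfap region, while 33, or 25%, lay at the edge, where 12.2% of all spots lay. All 16 spots with at least 10 Acta2 UMIs were in the Mgp/Igf2 region and held 32.5% of its UMIs. Yet 42 of the 143 spots of that region had no UMI of any smooth muscle gene, and 54 had none of Acta2, so the smooth muscle signal was patchy within it.

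Myl9 and Tagln together stood at 686 CPM in the Acta2 spots, 72.7 at 1 step, 26.8 at 2 steps and 16.9 at 3 or more. Vtn stood at 228, 44.8, 27.7 and 23.0. Both dropped mainly within 1 grid step. The endothelial genes stood at 318, 145, 114 and 106. Among them Cldn5 was at 84.2, 34.9, 18.5 and 23.0, while Flt1 was at 55.4, 45.6, 44.0 and 34.8, the flattest course of the 9 genes. Rgs5 had 4 UMIs in the Acta2 spots, 4.43 (1.21 to 11.4) CPM, and 2.50 at 3 or more steps. The median depth was 5652 UMIs in the Acta2 spots and 6965 at 3 or more steps.

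**Figure D5:**
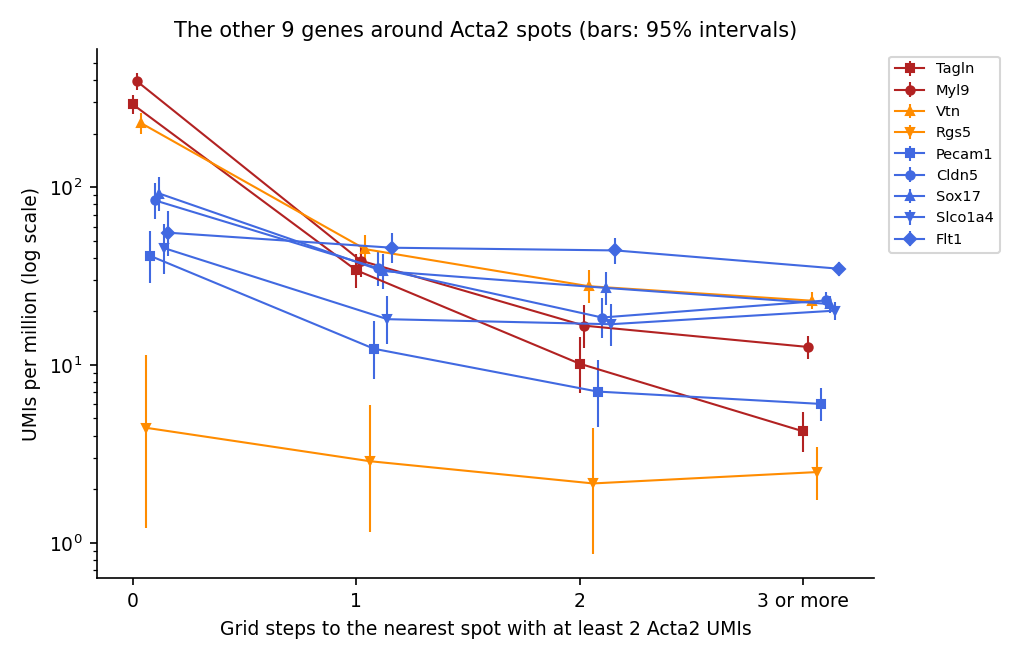
CPM (log axis, with 95% intervals as bars) of the 9 genes other than Acta2 in spots with at least 2 Acta2 UMIs (0 steps) and at 1, 2 and 3 or more grid steps from them. Red marks smooth muscle, orange pericyte and blue endothelial genes. Myl9, Tagln and Vtn are lower at 1 step than at 0 steps by far more than Flt1, which stands at 55.4 and 45.6.

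The spots with most smooth muscle UMIs differed in which gene led. The highest, with 87, held 76 of Acta2, 7 of Myl9 and 4 of Tagln. The spot beside it on the grid held 13 of Acta2, 51 of Myl9 and 7 of Tagln. The next highest held 15 of Acta2, 9 of Myl9 and 33 of Tagln. The proportion of the 3 genes thus differed between these spots. The 10 spots with most smooth muscle UMIs were all in the Mgp/Igf2 region. Endothelial UMIs in these 10 spots were between 0 and 7.

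Promoter sequence is shown for smooth muscle genes, whose levels moved together, beside Cldn5. Smooth muscle genes are known for CArG boxes, elements of 10 bases bound by serum response factor, and the 250 bases upstream of each start in RefSeq (GRCm38.p6) were searched on both strands for the exact box and for boxes with 1 mismatch. Of the 4 genes looked up, Tagln is named only. Capitals mark the matches, read 5′ to 3′ on the gene's strand.
Acta2, chr19:34255438-34255467, minus strand: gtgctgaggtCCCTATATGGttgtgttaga
Acta2, chr19:34255388-34255417, minus strand: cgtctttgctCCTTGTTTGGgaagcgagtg
Myl9, chr2:156775294-156775393, plus strand: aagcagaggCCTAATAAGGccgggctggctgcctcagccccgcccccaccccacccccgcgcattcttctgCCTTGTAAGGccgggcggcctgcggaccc
Cldn5, chr16:18776747-18776846, plus strand: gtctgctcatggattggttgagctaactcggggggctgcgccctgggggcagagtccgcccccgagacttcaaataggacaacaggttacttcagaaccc

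Acta2 held 2 boxes with 1 mismatch, which began 84 and 34 bases upstream of the start. The gene's record in RefSeq, 19:34240336 to 34255585, extends upstream of that start, so the stretches lie inside its span. Myl9 held 1 exact box 161 bases upstream and 1 with a mismatch 99 bases upstream. Its record in RefSeq, which begins at 2:156775408, also extends upstream of the start used, but the printed stretch lies outside it. Cldn5 held none in its 250 bases. Among 32526 mouse promoters of the same length, 1.48% held an exact box, 18.6% at least 1 box with at most 1 mismatch and 2.97% at least 2 such. The short word GGAA, the core of sites of the ETS factors active in endothelium, was found 3 times for Acta2, once for Myl9 and not for Cldn5, and 93.4% of promoters held it. These matches are letters in a window and say nothing of binding in this section.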

How the data were processed

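UMI counts per gene and spot were deposited by the authors as a filtered matrix, whose header, per the file headers, names Space Ranger 3.1.1. The build is mm10 per the submitters' processing notes. The values are raw counts, with no normalization by the authors, and the deposited position lists give grid places and tissue marks. Which probe set was used is not stated in the labels.

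Spots in the wild-type tissue list with at least 500 UMIs were kept. Regions came from scanpy 1.11.5 (Python 3.11.15): counts scaled to 10000 per spot, log values, 2000 variable genes, chosen after the 10 members and the other listed vessel genes were left out, 30 principal components, 15 neighbours and Leiden clustering at resolution 1. A region carried a marker name if at least 3 markers of a list were 2-fold above the other spots (pseudocount of 10 CPM), no other list had more, its leading marker belonged to that list and a marker was among its 10 leading genes. That naming condition was set after the clusters were seen. Doublets have no meaning for spots and were not called.

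Levels are summed UMIs over summed totals, with exact Poisson intervals, and ratios carry the exact conditional 95% interval for 2 counts, computed with scipy 1.17.1. A count of 0 was set to 3 counts for ratios. Genes with at least 100 UMIs over the spots compared entered counts of genes, and a ratio of 2-fold was the call. The ratio, its interval, the excess of variance and Moran's I were tested on simulated Poisson counts. The clustering and naming of regions were not tested so, and the intervals were not tested on counts with excess variance. Members and lists were chosen with earlier results of these data known. All 10 members are named, and from each other vessel list up to 3 genes of highest and 2 of lowest ratio in the Mgp/Igf2 region. Of 79 genes on the other lists, 77 were in the panel. The mismatch in the motif search, the border of the Mgp/Igf2 region and the comparisons at matched depth were added after the data were seen.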

Additional observations from a re-analysis of the deposited data

Results flagged for a closer look

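Counted spots outside the wild-type tissue list, which entered no comparison, held vessel UMIs above the limit of 3 that a count of 0 allows. In these 235 spots, with a median of 2507 UMIs, the smooth muscle genes had 363 UMIs, the endothelial genes 130 and the pericyte genes 71. In CPM the smooth muscle genes stood at 520 (468 to 577) there, against 96.2 in the spots used, and the endothelial genes at 186 against 121. Of the 235 spots, 119 were marked as tissue in the G2-3 list.

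One detached piece of 5 such spots, in grid rows 66 to 67 and columns 12 to 16, held 110 smooth muscle UMIs among 13881 in all, which is 7924.5 CPM (6513 to 9551). They were 58 of Acta2, 31 of Tagln and 21 of Myl9, with 9 endothelial UMIs beside them.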

How the results depend on the processing

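Of 80 alternatives to 12 results, 5 changed sign and 33 moved past a limit, which was the counting interval, or 1.5 times the value for the top-spot shares and the count of genes. The other 42 did not. All ratios here are log2. With the G2-3 tissue list the edge ratios changed sign, at -1.24 (-1.56 to -0.94) for smooth muscle and -0.40 (-0.83 to -0.003) for pericyte genes. For endothelial genes the edge ratio was -0.12 (-0.33 to 0.094), an interval that spanned 0. With that list the Mgp/Igf2 region gave 4.71 for smooth muscle and the C1ql2/Pcdh20 region -2.09 for endothelial genes. Per spot in place of CPM, which removes the division by depth, the Klk6/Gfap endothelial ratio changed sign to -0.33. Per spot the others were 4.19 (smooth muscle), 2.78 (pericyte) and 1.09 (endothelial) in the Mgp/Igf2 region, 1.35, 0.98 and 0.21 at the edge, and -0.29 for endothelial genes in the C1ql2/Pcdh20 region. Without Vtn the pericyte ratios, then of Rgs5 alone, were 0.59 in the Mgp/Igf2 region and -0.32 at the edge. At 2000 to 5000 UMIs the Mgp/Igf2 ratios were 2.64, 2.31 and 0.78 for the classes in the same order. Spots with at least 2000 UMIs were clustered anew, with 172 spots in the region in place of 143. The ratios were then 4.39 for smooth muscle and 1.53 for endothelial genes. The smooth muscle ratio in the Mgp/Igf2 region was also 4.63 at Leiden resolution 1.5 and 4.997 with the median of all genes at 0. It was 4.43 without the 5 spots with most smooth muscle UMIs and 4.71 without Acta2. The pericyte ratio was 3.14 without the 5 spots with most pericyte UMIs, and the endothelial ratio 2.02 without Flt1. The edge ratios of smooth muscle, pericyte and endothelial genes were 1.4996, 1.20 and 0.43 for an edge 2 steps wide, 1.44, 1.16 and 0.51 for the edge of all counted spots, and 0.92, 0.72 and 0.50 without the Mgp/Igf2 region. The smooth muscle to endothelial UMI ratio was 2.40 without Acta2 and Flt1, against 3.65 with them. The smooth muscle share of UMIs in the top spots was 2.90 times the endothelial share for the top 5% and 5.60 times for the top 1%. The Myl9 and Tagln ratio of Acta2 spots over those 3 or more steps away was 5.35, and 5.59 with at least 3 Acta2 UMIs. Beyond what each alternative removes by construction, the cause was not tested. Clusters of each alternative clustering took the region that held most of their spots, and markers were not read again. At resolution 0.6 that was the Mgp/Igf2 region for no cluster, so it gave no value for that region. With a minimum of 20 UMIs, 47 of 61 other vessel genes were at least 2-fold higher in the Mgp/Igf2 region, and with 100 UMIs 35 of 47, beside 10.9% of all genes with 100 UMIs. No paired analysis was possible because both samples hold the same matrix.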
